A study of Rattus norvegicus with 6 samples.

Results

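The chemokines of this report are 10 secreted or membrane-anchored signalling proteins, Ccl2, Ccl5, Ccl7, Ccl20, Cxcl1, Cxcl2, Cxcl10, Cxcl12, Cxcl16 and Cx3cl1, whose rows were taken from the count table by gene symbol. All 10 symbols had 1 row each among the 20609 genes of the table. The libraries came from rat PC12 cells, a line derived from a pheochromocytoma, a tumor of the adrenal medulla, with 3 libraries of cells given a control plasmid and 3 of cells given the PCBP1 overexpression plasmid (PCBP1-OE). PCBP-1 is a poly(rC)-binding protein that binds RNA and acts on transcription, splicing and mRNA fate. According to the methods the plasmid carried PCBP-1 with an EGFP tag and was delivered by Lipofectamine. Elsewhere the paper calls the overexpression constitutive and stable, so whether it was transient or stable in the sequenced cells is unclear. Whether the control plasmid also encoded EGFP, and the time of harvest for sequencing, were not stated in the labels or methods.

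Chemokines bind G protein-coupled receptors and direct the migration of leukocytes. The CC and CXC families are named for the spacing of the first cysteines of the mature protein, and Cx3cl1 (fractalkine) has a spacing of its own. Many chemokine genes are off in resting cells and are switched on by NF-kB after TNF or interleukin-1, and a smaller set that includes Cxcl9, Cxcl10 and Cxcl11 responds to interferons through STAT and IRF factors. In the nervous system they recruit immune cells and also act on glia and neurons.

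The 6 libraries held 19730209 to 22315623 counts on genes. The labelled cell type was checked against 9 chromaffin markers, of which 8 were matched. Th (tyrosine hydroxylase) was at 7.95 ± 0.846 and 7.73 ± 0.789 CPM (counts scaled to library size by the TMM method; SD, n = 3 each) in control and PCBP1-OE. Chga had 0, 0 and 2 counts in the controls and 0, 0 and 3 in PCBP1-OE, while Dbh had 5, 1 and 4 counts in the controls and 1, 0 and 1 in PCBP1-OE. The glial gene Sox10 was at 400 ± 9.45 and 367 ± 6.73 CPM (SD, n = 3 each). Ddc, Chgb and Phox2a likewise had 0 to 9 counts per library, and the transporter gene Slc18a1 had 17 to 28. The granin Scg2 went the other way, with 2607 to 3553 counts per library, or 155 ± 14.6 and 136 ± 7.59 CPM (SD, n = 3 each). The chromaffin markers were thus mixed, with 5 of the 8 near 0, and the cells are called PC12 here as the labels do. Of 10 leukocyte markers 8 were matched, and their summed level was 8.25 to 9.63 CPM in control and 7.53 to 8.17 CPM in PCBP1-OE libraries. Ptprc, which defines leukocytes, had 0 to 3 counts per library. Cd68, Cd3e and Lyz2 were higher than Ptprc, with group means of 3.61, 3.23 and 0.966 CPM in control. In PCBP1-OE they were at 2.81, 3.08 and 1.06 CPM, so the leukocyte markers were mixed too. The fibroblast, endothelial and Schwann cell lists had summed levels of 225 to 230 against 200 to 212, 4.07 to 5.62 against 4.95 to 5.90, and 613.5 to 657.3 against 580.5 to 600.1 CPM in control against PCBP1-OE. No gene of these 5 marker lists passed an adjusted p of 0.05 by edgeR's quasi-likelihood test, 4 had an unadjusted p under 0.05, and DESeq2, edgeR's exact test and limma-voom called 1, 0 and 0. No gene of the table was matched to PCBP-1 itself, so the level of the overexpressed gene could not be checked here. The paper reports higher PCBP-1 in PCBP1-OE cells by RT-qPCR and western blot.

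Of the 10 chemokine genes, 7 had enough counts for the test across genes and 3 (Ccl20, Cxcl12 and Cx3cl1) did not. The same 7 genes had a mean of at least 1 CPM over the 6 libraries. CPM values are not divided by gene length, so levels are compared between groups and not between genes. Cxcl10 and Ccl5 were called higher in PCBP1-OE, and none of the other 5 tested chemokines was called. The test was the quasi-likelihood test of edgeR, with p-values adjusted by Benjamini-Hochberg over the 12624 genes tested. A gene that was not called is not shown to be unchanged. The 2 called chemokines compare with 9.45% of all tested genes called in either direction, 4.45% called higher and 5% called lower. Over all tested genes 562 were called higher and 631 lower; upper-quartile scaling gave 655 higher and 427 lower. The median log2 fold change was -0.013 over the 7 chemokines and 0.0029 over all tested genes. In the scaled values the groups did not overlap in 2 chemokines that were higher in PCBP1-OE (Ccl5 and Cxcl10) and in 1 that was lower (Cxcl16), against 14.1% and 16.5% of all tested genes.

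**Figure D1:**
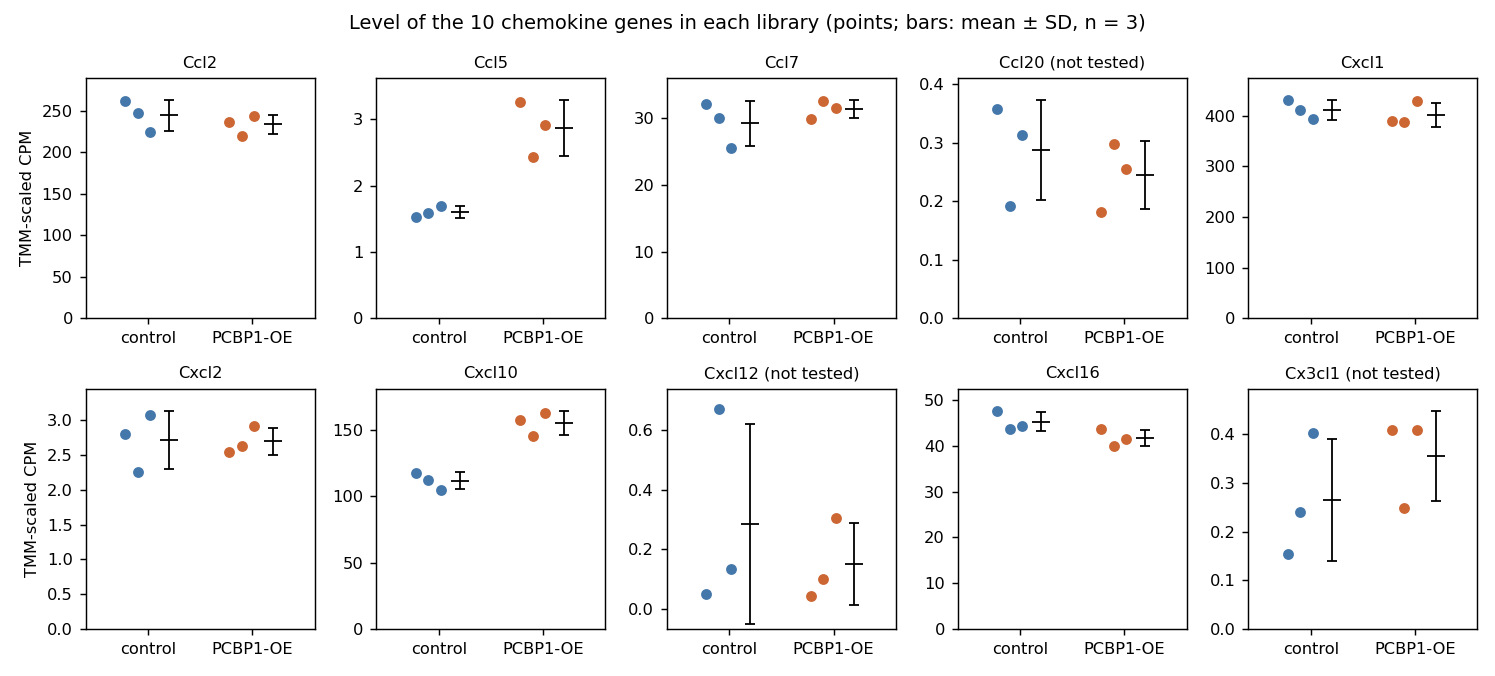
TMM-scaled CPM of each chemokine gene (vertical axes, each panel with its own scale) in the 3 control and 3 PCBP1-OE libraries (points), with the group mean and SD beside them. Cxcl10 and Ccl5 lie above all controls in all 3 PCBP1-OE libraries, and the groups overlap in Ccl2, Ccl7, Cxcl1 and Cxcl2.

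Cxcl10 (ENSRNOG00000022256, chromosome 14), the ligand of Cxcr3 that attracts activated T cells and is induced by interferons, had the smallest adjusted p of the chemokines. Its counts were 2308, 2354 and 2352 in the controls and 3479, 2942 and 3198 in PCBP1-OE. Already as raw counts the lowest PCBP1-OE library exceeded the highest control. After scaling the level was 118, 113 and 105 CPM in control replicates 1, 2 and 3 and 158, 146 and 163 CPM in the PCBP1-OE replicates. The group means were 112 ± 6.47 and 156 ± 8.94 CPM (SD, n = 3 each). This was a log2 fold change of 0.48 ± 0.055 (SE; adjusted p = 0.00125, edgeR's quasi-likelihood test), or 1.39-fold with a 95% interval of 1.28 to 1.51. With each library left out in turn Cxcl10 passed in 6 of 6 fits, with log2 fold changes of 0.43 to 0.52 and adjusted p-values of 1.4e-04 to 0.0202. In bulk RNA, more cells that express a gene and more RNA per cell cannot be told apart.

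The promoters of the chemokine genes were read from RefSeq on GRCr8, as windows from 250 bases before to 50 bases after the transcription start, which were found for 8 of the 10 genes and not for Ccl2 and Ccl5. Motifs were searched on both strands: the core of the interferon-stimulated response element (ISRE), GAAANNGAAA; a kB-like motif, GGGNNTTNCC; the GAS element of STAT factors, TTCNNNGAA; and the AP-1 site, TGANTCA. Over all 33469 windows of this length 3.92% held the ISRE core, 5.005% the kB-like motif, 8.87% the GAS element and 7.33% the AP-1 site. The windows of 3 genes are shown because they belong to the interferon-inducible Cxcl10, which rose, and to Cxcl1 and Cxcl2, which were not called. Capitals mark the motif matches.
Cxcl10 (GRCr8, chr14:15988816-15989115, + strand): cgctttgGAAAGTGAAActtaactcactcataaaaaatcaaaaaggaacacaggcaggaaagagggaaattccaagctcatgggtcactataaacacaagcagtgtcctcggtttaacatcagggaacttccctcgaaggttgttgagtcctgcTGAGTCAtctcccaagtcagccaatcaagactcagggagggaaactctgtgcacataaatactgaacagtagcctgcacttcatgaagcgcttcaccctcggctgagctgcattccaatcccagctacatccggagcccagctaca
Cxcl1 (GRCr8, chr14:17479272-17479571, - strand): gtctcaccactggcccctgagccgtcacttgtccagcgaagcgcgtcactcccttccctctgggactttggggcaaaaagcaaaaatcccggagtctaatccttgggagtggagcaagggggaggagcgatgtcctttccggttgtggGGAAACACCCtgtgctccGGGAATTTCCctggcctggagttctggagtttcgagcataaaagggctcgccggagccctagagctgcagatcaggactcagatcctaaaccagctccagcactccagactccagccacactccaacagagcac
Cxcl2 (GRCr8, chr14:17467206-17467505, - strand): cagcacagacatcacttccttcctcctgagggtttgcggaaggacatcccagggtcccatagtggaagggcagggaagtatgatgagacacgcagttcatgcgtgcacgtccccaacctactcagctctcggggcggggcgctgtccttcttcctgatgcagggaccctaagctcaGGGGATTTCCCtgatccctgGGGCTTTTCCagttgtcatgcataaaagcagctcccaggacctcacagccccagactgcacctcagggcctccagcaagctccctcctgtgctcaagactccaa

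The window of Cxcl10 held the ISRE core GAAAGTGAAA at bases -243 to -234 from the start and an AP-1 site at -96 to -90, and was the only 1 of the 8 windows with an ISRE core. The window of Cxcl1 held kB-like matches at -102 to -93 and -84 to -75, and that of Cxcl2 at -74 to -65, -73 to -64 and -54 to -45, the first pair of which overlap. Ccl20 held overlapping kB-like matches at -90 to -81 and -89 to -80, and Ccl7 an AP-1 site at -73 to -67 and a GAS element at +32 to +40. No match was found in the windows of Cxcl12, Cxcl16 and Cx3cl1. The window of Cxcl11, the neighbour of Cxcl10, held a GAS element at -250 to -242 and an AP-1 site at -85 to -79. The kB-like motif is 1 narrow pattern, and sequences close to it were not marked. The Cxcl10 window also holds gggaaattcc and gggaacttcc, and the Cxcl11 window gggaaattcc, each of which misses the pattern at 1 base. A window without a marked match is thus not shown to lack kB-like sequences. The matches describe letters in these windows and were not tested as binding sites.

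Ccl5 (ENSRNOG00000010906, chromosome 10), also called RANTES, attracts T cells and monocytes. It was counted 30, 33 and 38 times in the controls and 72, 49 and 57 times in PCBP1-OE. The scaled level was 1.53, 1.58 and 1.69 CPM in the controls and 3.27, 2.43 and 2.91 CPM in PCBP1-OE. The lowest PCBP1-OE library was thus above the highest control, although few reads stand behind each value. The controls spread by 5.26% of their mean, less than the 17.2% that counting alone gives, so their closeness understates the uncertainty of the control level. The log2 fold change was 0.84 ± 0.21 (SE; adjusted p = 0.0289, same edgeR test), or 1.79-fold with a 95% interval of 1.31 to 2.44. The call depended on single libraries: the adjusted p was 0.0971 when control replicate 1 was left out and 0.126 when it was control replicate 2. Leaving out PCBP1-OE replicate 1, 2 or 3 gave 0.143, 0.0620 and 0.0672. Only without control replicate 3 did Ccl5 still pass, at 0.0169. The log2 fold change stayed between 0.73 and 0.95 in these 6 fits.

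**Figure D2:**
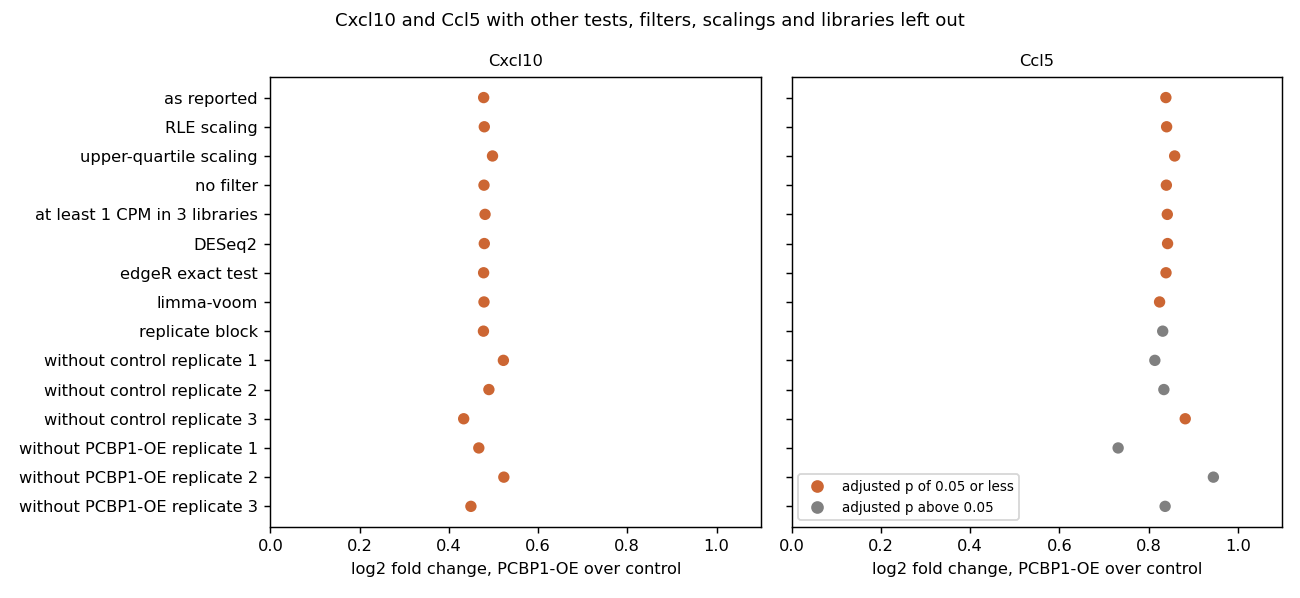
Log2 fold change of Cxcl10 (left) and Ccl5 (right) on the horizontal axes, as reported and under each alternative on the vertical axis, with the side of the 0.05 threshold shown by color. All points lie above 0; Cxcl10 stays between 0.43 and 0.52 with an adjusted p of 0.05 or less throughout, and Ccl5 between 0.73 and 0.95 with 8 of 14 alternatives at or under 0.05.

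Cxcl1 and Cxcl2 attract neutrophils through Cxcr2 and are classical targets of NF-kB, and both had kB-like matches in the windows shown for them. Cxcl1 (ENSRNOG00000002802, chromosome 14) was counted 8436, 8558 and 8804 times in the controls and 8578, 7807 and 8395 times in PCBP1-OE. The scaled level was 430, 410 and 393 CPM in the controls and 389, 387 and 429 CPM in PCBP1-OE. The groups overlapped. The log2 fold change was -0.033 ± 0.052 (SE; adjusted p = 0.719, same edgeR test), and its 95% interval of -0.15 to 0.079 does not include the change estimated for Cxcl10. Cxcl2 (ENSRNOG00000002792, chromosome 14) was at 2.81, 2.25 and 3.08 CPM in the controls and 2.54, 2.63 and 2.91 CPM in PCBP1-OE, from 47 to 69 counts per library. All PCBP1-OE values of Cxcl2 lay within the range of the controls. Its log2 fold change was -0.013 with an interval of -0.43 to 0.41 (adjusted p = 0.972, same edgeR test), a wide interval that reflects its few counts.

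Ccl2 and Ccl7 are CC chemokines that attract monocytes through Ccr2. Ccl2 (ENSRNOG00000007159, chromosome 10) had 5127, 5162 and 5046 counts in the controls and 5229, 4447 and 4769 in PCBP1-OE. The scaled level was 261, 247 and 225 CPM against 237, 220 and 243 CPM. The groups overlapped, and the log2 fold change was -0.065 with a 95% interval of -0.19 to 0.060 (adjusted p = 0.495, same edgeR test). Ccl7 (ENSRNOG00000000239, chromosome 10) was at 32.2, 30.0 and 25.5 CPM in the controls and 29.9, 32.6 and 31.6 CPM in PCBP1-OE. Control replicate 3 was the lowest library for Ccl7, and the other controls lay within the range of the PCBP1-OE values. The log2 fold change of Ccl7 was 0.10 with an interval of -0.079 to 0.29 (adjusted p = 0.455, same edgeR test). The spread between control libraries was 7.51% of the mean for Ccl2 and 11.7% for Ccl7, where counting alone gives 1.40% and 4.05%.

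Cxcl16 and Cx3cl1 are made as transmembrane proteins, bind Cxcr6 and Cx3cr1, and are released by Adam10 and Adam17. Cxcl16 (ENSRNOG00000026647, chromosome 10) was at 47.6, 43.8 and 44.3 CPM in the controls and 43.6, 39.9 and 41.6 CPM in PCBP1-OE. All PCBP1-OE libraries were below all controls, by a margin of less than 1 CPM between the nearest values. The log2 fold change of -0.12 ± 0.060 (SE; 95% interval -0.25 to 0.014) did not pass (adjusted p = 0.225, same edgeR test), and the raw counts overlapped, at 934, 914 and 994 in control and 961, 806 and 815 in PCBP1-OE. Cx3cl1 (ENSRNOG00000016326, chromosome 19) had only 3, 5 and 9 counts in the controls and 9, 5 and 8 in PCBP1-OE, which leaves its change unresolved.

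Ccl20 and Cxcl12 were also at the edge of detection. Ccl20 (ENSRNOG00000015992, chromosome 9), the ligand of Ccr6, had 7, 4 and 7 counts in the controls and 4, 6 and 5 in PCBP1-OE. Cxcl12 (ENSRNOG00000013589, chromosome 4), a constitutive ligand of Cxcr4 and Ackr3, had 1, 14 and 3 counts in the controls and 1, 2 and 6 in PCBP1-OE, so that control replicate 2 held 14 of the 18 control counts. Fitted without the filter, Ccl20, Cxcl12 and Cx3cl1 had log2 fold changes of -0.23, -0.93 and 0.40 with adjusted p-values of 0.882, 0.539 and 0.746 by the same edgeR test. In scaled values the groups of these 3 genes overlapped (two-sided exact permutation tests, p = 0.5, 0.6 and 0.2, where 0.1 is the smallest p that 3 against 3 libraries allow).

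The same counts can be written per 100 counts of Cxcl1 in the same library, which needs no scaling between libraries. Cxcl1 was chosen as the denominator after it was seen not to be called, so these ratios describe the counts already given and add no separate evidence. Cxcl10 was at 27.4, 27.5 and 26.7 per 100 Cxcl1 counts in the controls and at 40.6, 37.7 and 38.1 in PCBP1-OE. Its mean went from 27.2 ± 0.421 to 38.8 ± 1.55 (SD, n = 3 each), a difference of 11.6. Ccl5 was at 0.391 ± 0.0383 and 0.715 ± 0.110 per 100 Cxcl1 counts (SD, n = 3 each), again with no overlap. Ccl2 was at 59.5 ± 1.88 and 58.2 ± 2.35, Ccl7 at 7.09 ± 0.533 and 7.83 ± 0.534, Cxcl16 at 11.0 ± 0.309 and 10.4 ± 0.751 and Cxcl2 at 0.662 ± 0.118 and 0.670 ± 0.0151 (SD, n = 3 each), and these 4 overlapped between groups. The exact permutation tests (two-sided) gave p = 0.1 for Cxcl10 and Ccl5, the smallest possible, and 0.6, 0.2, 0.3 and 0.9 for Ccl2, Ccl7, Cxcl16 and Cxcl2. Adjusted over the 6 ratios these were 0.3 for Cxcl10 and Ccl5 and 0.4 to 0.9 for the others, so that no ratio could pass in this design.

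**Figure D3:**
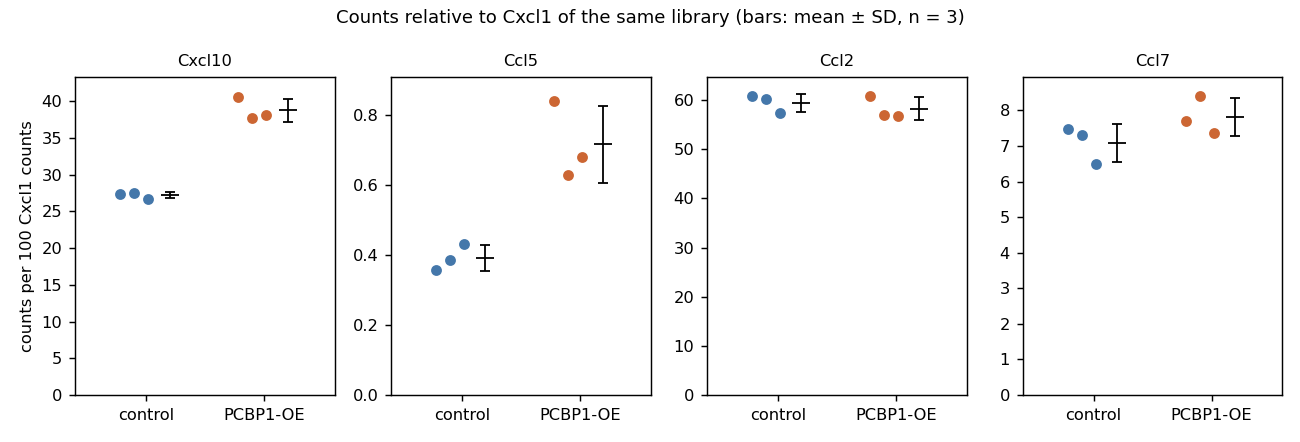
Counts per 100 Cxcl1 counts of the same library (vertical axes from 0) for Cxcl10, Ccl5, Ccl2 and Ccl7 in the 3 libraries of each group (points; bars are mean and SD). Cxcl10 moves from 26.7 to 27.5 in the controls to 37.7 to 40.6 in PCBP1-OE, whereas Ccl2 stays within 56.8 to 61.0 in both groups.

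Among 26 other chemokine ligands 21 were matched, and 6 of these had enough counts for the test. None passed an adjusted p of 0.05 by edgeR's quasi-likelihood test, 1 had an unadjusted p under 0.05, and DESeq2, limma-voom and edgeR's exact test called 0, 0 and 1. The median log2 fold change of the 6 was 0.34. DESeq2 gave no adjusted p for Cxcl11 and Ccl4, so its count of 0 is no result for these genes. The gene with the small unadjusted p was Cxcl11, the other interferon-inducible ligand of Cxcr3, which is named because its values were seen. Cxcl11 had 12, 19 and 23 counts in the controls and 32, 27 and 39 in PCBP1-OE, and its scaled groups did not overlap. Its log2 fold change was 0.89 with an interval of 0.26 to 1.52 (adjusted p = 0.0713, same edgeR test; 0.0338 to 0.216 over 13 alternatives, of which 3 passed). Cxcl9, the remaining member of that trio, was near absence with 0, 0 and 1 counts against 4, 0 and 0. The tested ligands with the highest mean CPM, a value not divided by gene length, were Ccl24 (eotaxin-2), at 2.78 ± 0.395 and 3.20 ± 0.369 CPM, and Cxcl3, a ligand of Cxcr2, at 2.19 ± 0.673 and 3.04 ± 0.354 CPM (SD, n = 3 each). The log2 fold changes of Ccl24 and Cxcl3 were 0.21 and 0.48, with adjusted p-values of 0.508 and 0.205 by the same edgeR test.

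**Figure D4:**
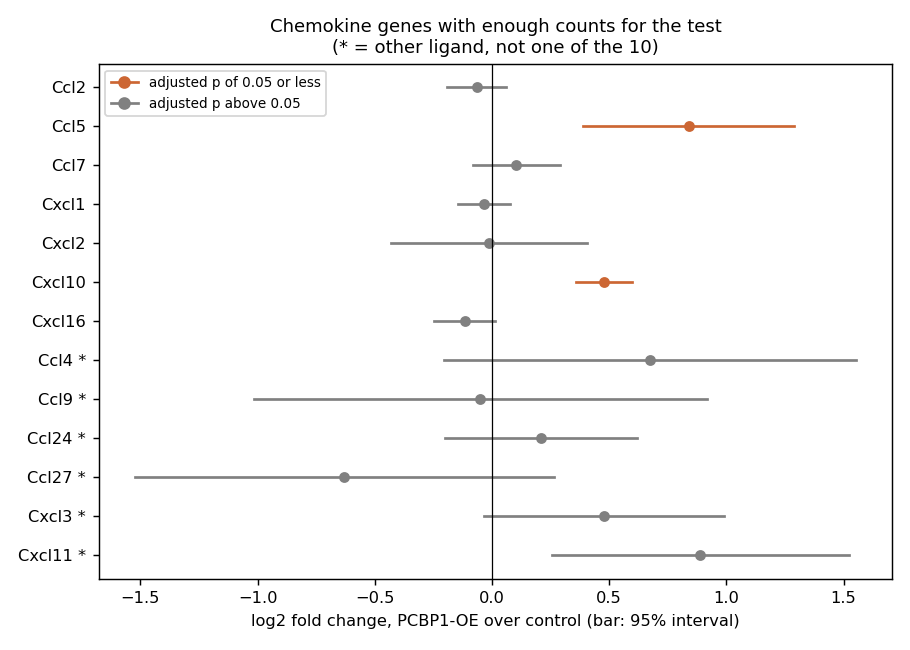
Log2 fold change of PCBP1-OE over control (horizontal axis) with its 95% interval for the 7 tested chemokines of the report and the 6 other tested ligands (marked *). Only the intervals of Cxcl10, Ccl5 and Cxcl11 lie wholly above 0, and of these Cxcl10 and Ccl5 had an adjusted p of 0.05 or less.

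Receptors for these ligands were scarce in the same libraries. Of 23 receptor genes 14 were matched and 5 were tested, and none passed an adjusted p of 0.05 by edgeR's quasi-likelihood test, none had an unadjusted p under 0.05, and 0 were called by DESeq2, limma-voom or edgeR's exact test. DESeq2 gave no adjusted p for Ackr3 and Ccrl2, the receptors with the highest mean CPM, so its count of 0 is no result for them. Cxcr3, the receptor of Cxcl10, had 0, 0 and 0 counts in the controls and 1, 0 and 0 in PCBP1-OE. Cxcr2, the receptor of Cxcl1 and Cxcl2, had 3, 2 and 5 against 2, 3 and 1, and Cxcr4, the receptor of Cxcl12, had 4, 3 and 7 against 5, 2 and 2. The highest mean CPM values, again not per length, were those of Ackr3, a scavenging receptor of Cxcl12, at 1.86 ± 0.0965 and 1.76 ± 0.224 CPM (SD, n = 3 each), with a log2 fold change of -0.085 (adjusted p = 0.836, same edgeR test), and of the atypical receptor Ccrl2, with 0.23 (adjusted p = 0.657).

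The factors through which interferons reach chemokine genes were described from a list of 20 genes, all matched, of which 16 were tested. By edgeR's quasi-likelihood test 2 rose and 1 fell, the median log2 fold change was 0.13, and the groups did not overlap in 7 higher and 2 lower genes of the 16. Over all tested genes 4.45% were called higher and 5% lower, and 14.1% and 16.5% did not overlap. Irf9, part of the complex that binds interferon-stimulated response elements, rose by 0.53 on the log2 scale (SE 0.095, adjusted p = 0.00977). The call was lost without control replicate 2 (0.0692) or PCBP1-OE replicate 2 (0.0551), where the log2 fold change was 0.52 and 0.44. Ifngr1, a chain of the interferon-gamma receptor, fell by 0.16 on the log2 scale (adjusted p = 0.0496) and, with 1 library left out, kept this call only without control replicate 3 (0.0433; 0.0839 to 0.170 in the other 5 fits), passing in 2 of 14 alternatives in all. The interferon-beta gene Ifnb1 had 0, 0 and 1 counts in the controls and 5, 1 and 1 in PCBP1-OE, and Ifng had 1, 0 and 4 against 1, 1 and 2.

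Of 23 genes for NF-kB inputs and factors 21 were matched and tested, with 2 called higher, 2 called lower (4.45% and 5% of all tested genes) and a median log2 fold change of 0.041. The groups did not overlap in 7 higher and 2 lower genes of the 21, against 14.1% and 16.5% of all tested genes. The higher genes included Nfkbia, Ikbkg and Traf6, which were not called. Their log2 fold changes were 0.12, 0.52 and 0.38 (adjusted p = 0.105, 0.102 and 0.168, edgeR's quasi-likelihood test). The subunits Nfkb1 and Rela were at 101 ± 7.44 and 109 ± 4.24 CPM and at 113 ± 7.83 and 114 ± 7.65 CPM (SD, n = 3 each), with log2 fold changes of 0.11 and 0.015 (adjusted p = 0.212 and 0.893, same edgeR test). Tnfaip3 (A20), an NF-kB target that brakes the pathway, was at 11.8, 10.5 and 17.2 CPM in the controls and 21.3, 22.7 and 18.8 CPM in PCBP1-OE, giving a log2 fold change of 0.66 ± 0.15 (SE; adjusted p = 0.0208). It did not pass without control replicates 1 (0.0937) or 2 (0.121) or PCBP1-OE replicates 1 (0.0955) or 2 (0.0919). Chuk, the IKK-alpha kinase, had a log2 fold change of 0.27 (adjusted p = 0.0349), which became 0.104 or 0.116 when control replicate 1 or 2 was left out and 0.149 or 0.0871 when it was PCBP1-OE replicate 1 or 3. Tnfrsf1a, the main TNF receptor, fell from 75.6 ± 4.04 to 62.6 ± 0.895 CPM (SD, n = 3 each), or a log2 fold change of -0.27 ± 0.051 (SE; adjusted p = 0.0111). Its call ended without control replicate 2 (0.0692) or PCBP1-OE replicate 2 (0.0512). Tnip1, which binds A20, fell by 0.16 on the log2 scale (adjusted p = 0.0483), a call kept among the fits with 1 library left out only without control replicate 3 (0.0293; 0.106 to 0.274 in the other 5 fits), and it passed in 4 of 14 alternatives in all.

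Proteases that shed or trim chemokines and RNA-binding proteins that control their AU-rich mRNAs were also examined. Of 6 proteases 5 were tested and 1 rose (4.45% of all tested genes did), with a median log2 fold change of 0.14. Adam10, a sheddase of Cxcl16 and Cx3cl1, went from 19.4 ± 2.96 to 25.1 ± 1.35 CPM (SD, n = 3 each), or a log2 fold change of 0.37 (adjusted p = 0.0437, same edgeR test) that passed in 8 of 14 alternatives. Among the fits with 1 library left out it passed only without control replicate 3 (9.4e-04; 0.0597 to 0.185 in the other 5 fits). The other sheddase, Adam17, was at 113 ± 1.94 and 106 ± 2.42 CPM (SD, n = 3 each; log2 fold change -0.093, adjusted p = 0.168), and Mmp14, a membrane metalloprotease, had a log2 fold change of 0.14 (adjusted p = 0.334). Of 7 RNA-decay and stability factors 6 were matched and tested, with 1 called higher, 1 called lower (4.45% and 5% of all tested genes) and a median of 0.078. Zfp36l1, which destabilises AU-rich mRNAs, was at 90.1, 95.1 and 99.4 CPM in the controls and 125, 121 and 125 CPM in PCBP1-OE, giving a log2 fold change of 0.38 ± 0.047 (SE; adjusted p = 0.00149). It passed with each library left out (7.9e-05 to 0.0302). Zc3h12a (regnase-1), a nuclease that degrades inflammatory mRNAs, fell from 47.8 ± 1.36 to 39.1 ± 2.01 CPM (SD, n = 3 each), or a log2 fold change of -0.29 (adjusted p = 0.0148). Without control replicates 1 or 2 or PCBP1-OE replicate 1 its adjusted p was 0.0527, 0.0815 and 0.0725.

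**Figure D5:**
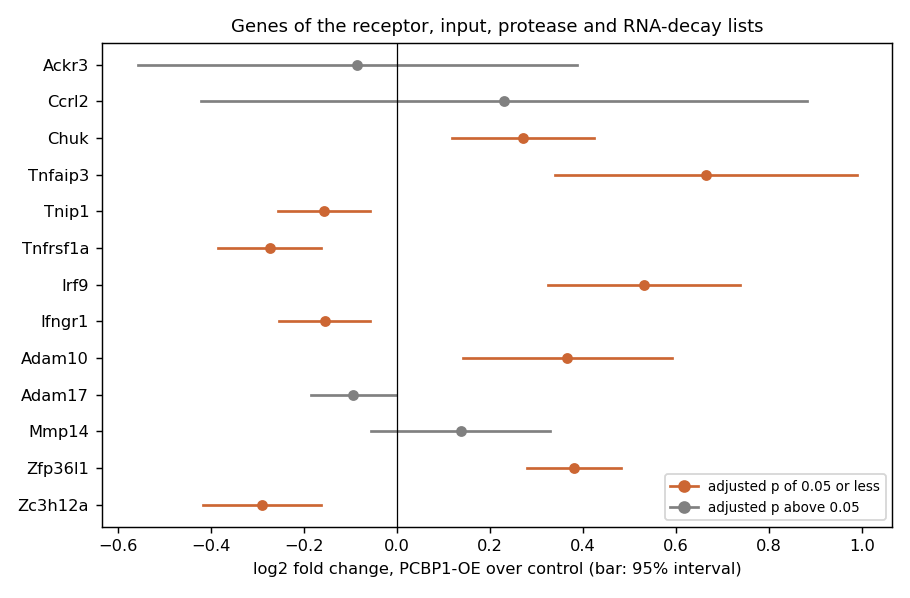
Log2 fold change of PCBP1-OE over control (horizontal axis) with its 95% interval for named genes of the receptor, NF-kB, interferon, protease and RNA-decay lists. Irf9 (0.53), Tnfaip3 (0.66) and Zfp36l1 (0.38) are among the genes above 0 with an adjusted p of 0.05 or less, and Tnfrsf1a (-0.27) and Zc3h12a (-0.29) among those below.

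The genes that lie next to Cxcl10 on the rat chromosome were compared to see whether the change extended along it. In the RefSeq order of protein-coding genes on the assembly GRCr8, Cxcl10 lies between Cxcl11 and Cxcl9, followed outward by Art3, Nup54 and Scarb2 on the Cxcl11 side and by Sdad1, Naaa and Ppef2 on the other. The log2 fold changes of Art3, Nup54 and Scarb2 were -0.20, 0.15 and 0.085 and those of Sdad1 and Naaa 0.11 and 0.19, with adjusted p-values of 0.0688 to 0.734 by the same edgeR test, and Ppef2 had 3 to 9 counts per library. None of these 5 tested neighbours was called, and neither was the adjacent Cxcl11, at 0.89 (adjusted p = 0.0713, same edgeR test). As 9.45% of all tested genes were called, so few genes without a call do not show whether the change extended along the chromosome. Cxcl11, Nup54 and Sdad1 were higher in PCBP1-OE without overlap of the groups, as were 14.1% of all tested genes. Their levels in control and PCBP1-OE were 0.849 ± 0.213 against 1.59 ± 0.349 CPM, 54.1 ± 1.88 against 60.2 ± 0.837 CPM and 40.3 ± 2.49 against 43.5 ± 1.29 CPM (SD, n = 3 each).

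The tested genes whose log2 CPM followed that of Cxcl10 most closely over the 6 libraries were Nupl2 (Pearson's r = 0.998), Gadd45a (0.989) and Ube2v2 (0.986). Of these Gadd45a, a growth-arrest and stress gene, rose from 263 to 337 CPM (group means), with a log2 fold change of 0.36 (adjusted p = 0.00131, same edgeR test). For Ccl5 they were Acbd3 (0.998), Ddx27 (0.996) and Ptp4a1 (0.996), of which the phosphatase gene Ptp4a1 rose by 0.30 on the log2 scale (adjusted p = 0.00835). The libraries share group, depth and scaling, so these values are descriptions.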

How the data were processed

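RNA-seq counts of 6 libraries (3 control, 3 PCBP1-OE) were used, each mapped to its group and replicate by its title. The deposited table holds unnormalized read counts for each gene. The methods name FASTX-Toolkit for cleaning and TopHat2 for alignment to the rat genome Rnor_6.0, of which uniquely mapped reads were kept. The submitters' processing notes name GRCh38, although the rows are rat Ensembl genes. The counting tool and strand setting were not stated in those sources, so overlapping or near-identical genes are uncertain. The library kit is named differently in the labels and in the methods.

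Genes were kept by filterByExpr (minimum count 10, minimum total 15), scaled by TMM and tested by quasi-likelihood in edgeR 4.0.16 under R 4.3.3, with Benjamini-Hochberg adjustment over 12624 genes, which left 7985 untested. An adjusted p of 0.05 was the threshold, with no limit on fold change. Intervals are 95% intervals of the same fit. Exact permutation tests were two-sided (Python 3.11.15, scipy 1.17.1). Also run were DESeq2 1.42.0, limma-voom (limma 3.58.1), the exact test of edgeR, scaling by RLE or upper quartile, a filter of 1 CPM in 3 libraries or none, a block for the replicate number, and fits leaving out 1 library. The fit was tested on simulated data.

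The members and lists were chosen with earlier results of these data known. Named were all 10 chemokines, the called genes of each list or, with fewer than 2 called, its 2 highest genes, and the 3 genes most correlated with each called chemokine (log2 CPM, prior count 2); other genes were named after their values were seen. Some genes of the lists are counted but their values are not reported here. Hnrnpd was matched by a RefSeq synonym. The labels do not say that replicates came from separate cultures, so p-values measure the spread between these libraries. Replicates differed by more than counting noise (chi-square per gene 5.85 to 17.2).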

Additional observations from a re-analysis of the deposited data

How the results depend on the processing

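Over 14 alternatives each for the 7 tested chemokines, 86 of 98 values kept their direction and their side of the threshold, 6 lost the call and 6 changed sign; all 6 lost calls were of Ccl5 and all 6 sign changes were of genes that were never called. Cxcl10 passed in 14 of 14 alternatives (adjusted p = 9.4e-15 to 0.0420) and Ccl5 in 8 of 14 (0.00651 to 0.143). Ccl2, Ccl7, Cxcl1, Cxcl2 and Cxcl16 passed in none. Cxcl2 was at 0.0064 (log2) under upper-quartile scaling and at -0.13 to 0.091 with 1 library left out, Cxcl1 at -0.075 to 0.0069, and Ackr3 at -0.14 to 0.021. The number of chemokines called was 1 to 2 with 1 library left out. All genes called numbered 1193, and 48 (without control replicate 2) to 2860 (without control replicate 3) with 1 library left out, and 2090 with no filter. Genes called over the receptor, ligand and pathway lists numbered 10, 2 to 18 with 1 library left out, and 16 with edgeR's exact test. Of the other named genes, 192 of 247 values kept direction and side, 50 lost and 4 gained the call, and 1 changed sign. Same-numbered libraries did not deviate together (correlations -0.078, -0.051 and -0.043). Whether they shared a preparation was not tested. With the replicate block 16 genes, 1 chemokine (Cxcl10) and 0 genes of the lists were called. With a prior count of 0.5 the genes most like Cxcl10 and Ccl5 were the same 3 each. Genes with few counts (Ccl5, Cxcl2, Ccl20, Cxcl12, Cx3cl1) are limited by depth. The cause of the changes with single libraries was not tested.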

Other observations

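Ccl4, a CC chemokine named here because its values were seen, had 4, 16 and 21 counts in the controls and 21, 21 and 22 in PCBP1-OE. Its scaled groups did not overlap, but control replicate 1 stood apart from the other controls, and without it the log2 fold change went from 0.68 to 0.28 (adjusted p = 0.301 and 0.655, edgeR's quasi-likelihood test). Irf7, an interferon-inducible amplifier of the interferon response, had 54, 49 and 74 counts in the controls and 78, 126 and 82 in PCBP1-OE, giving a log2 fold change of 0.73 that did not pass (adjusted p = 0.0593, same test). Irf3, from the same interferon list, went the other way, from 44.7 ± 3.93 CPM in control to 38.2 ± 0.881 CPM in PCBP1-OE (SD, n = 3 each). Its groups did not overlap, and its log2 fold change of -0.22 did not pass either (adjusted p = 0.0552, same test). The cytokine gene Il6, another NF-kB target, was at 2.76 ± 0.228 CPM in control and 3.73 ± 0.275 CPM in PCBP1-OE (SD, n = 3 each), with groups that did not overlap and an adjusted p of 0.119 by the same test.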
